A study of Sus scrofa with 3 samples.

Results

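The insulin-like growth factor (IGF) axis was described in mesenchymal stem cells (MSC) that were isolated from fat of adult pigs and expanded in culture. The genes were taken by name: 10 genes were looked for (the ligands IGF1 and IGF2, the receptors IGF1R and IGF2R, and the binding proteins IGFBP2 to IGFBP7), and 7 of the 30477 entries of the deposited expression table carried those names. These were IGF1, IGF1R, IGF2R, IGFBP2, IGFBP4, IGFBP5 and IGFBP7. IGFBP6 was found by its Ensembl ID, and an unnamed entry lies at the position of IGF2. Their values are given beside the 7 and are not counted with them. IGFBP3 is not analysed here.

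IGF1 and IGF2 are small secreted hormones that promote growth and survival of mesenchymal cells by activating IGF1R, a tyrosine kinase receptor. IGF2R has no kinase activity; it takes IGF2 up for breakdown and also carries mannose 6-phosphate tagged enzymes to the lysosome. The binding proteins are secreted, hold IGFs with high affinity (IGFBP7 only weakly) and so limit or prolong their access to the receptor, until proteases cut them and set the IGF free.

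The series has a single group of 3 samples, all adipose-derived MSC kept in advanced MEM with human platelet lysate and with no treatment named, so there is no comparison between conditions. It belongs to work on MSC transplantation for the venous narrowing of arteriovenous fistulas used in hemodialysis. The samples are called cultures 1, 2 and 3 as their titles number them. The labels tie no culture to an animal, so p-values measure only the spread between these samples, which may in part be technical.

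The levels are in RPKM, a read count divided by the length of the gene model and by the size of the library. Comparisons between genes therefore rest on the listed lengths, which were not checked. The libraries held 51788677, 62248183 and 64774044 reads over genes in cultures 1, 2 and 3. Library 1 stood apart, with 70.3% of its reads on protein-coding genes against 88.6% and 88.8%, and 28.3% on small RNA genes against 9.12% and 8.36%. The Y-linked genes KDM5D and EIF1AY were listed at 0 in culture 1 and at 4.10 and 9.38 RPKM in culture 2 and 4.18 and 9.34 in culture 3. All 8 MSC surface markers examined, such as CD44 (78.4 ± 6.66 RPKM, SD, n = 3) and PDGFRA (161 ± 50.8), lay above 1 RPKM in limma's test. All 5 adipocyte, 3 hepatocyte and 3 skeletal muscle markers lay below, with summed levels per culture of 0.373 to 0.792, 0.0917 to 0.267 and 0.0519 to 0.150 RPKM. So did all 4 epithelial or mesothelial markers measured (0.184 to 0.857 RPKM summed). Of 5 blood cell and 5 endothelial markers 4 each lay below; the exceptions were CD14 (2.12 ± 0.289 RPKM) and PECAM1 (1.92 ± 0.910), whose gene body overlaps the abundant DDX5. The call of PECAM1 (limma, adjusted p = 0.024) was lost without culture 2 (0.37) or culture 3 (0.053), and the call of ITGAM below 1 RPKM (0.0099) without culture 1 (0.15) or culture 2 (0.10).

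All 7 IGF axis genes were expressed above 1 RPKM. Each of the 4 binding proteins had a higher RPKM than IGF1 and both receptors in every culture, from 1.14-fold for IGFBP2 over IGF1 in culture 1 upwards. That smallest difference depends on the listed lengths: IGFBP2 had 1402 reads over 1421 bases there, and IGF1 4781 reads over 5522 bases. In limma's moderated test on log2(RPKM + 0.5) against 1 RPKM, 7 of 7 were above after Benjamini-Hochberg adjustment over all 29479 genes with a read. Of all those genes 30.6% were above, and of the protein-coding ones 42.0%. The largest of the 7 adjusted p-values in limma was 3.4e-07, for IGF1, a value that moved strongly with the setting, as given at the end. The test borrows its estimate of spread from the rest of the table. The median of the 7 was 42.7 RPKM, beside 0.109 RPKM over all entries, which include non-coding genes and 998 entries without a read. Among protein-coding genes of at least 1 RPKM, the 7 stood at percentiles from 62.0 (IGF2R) to 99.3 (IGFBP5). Together the 7 genes took 0.327%, 0.362% and 0.508% of the counted reads in cultures 1, 2 and 3.

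**Figure D1:**
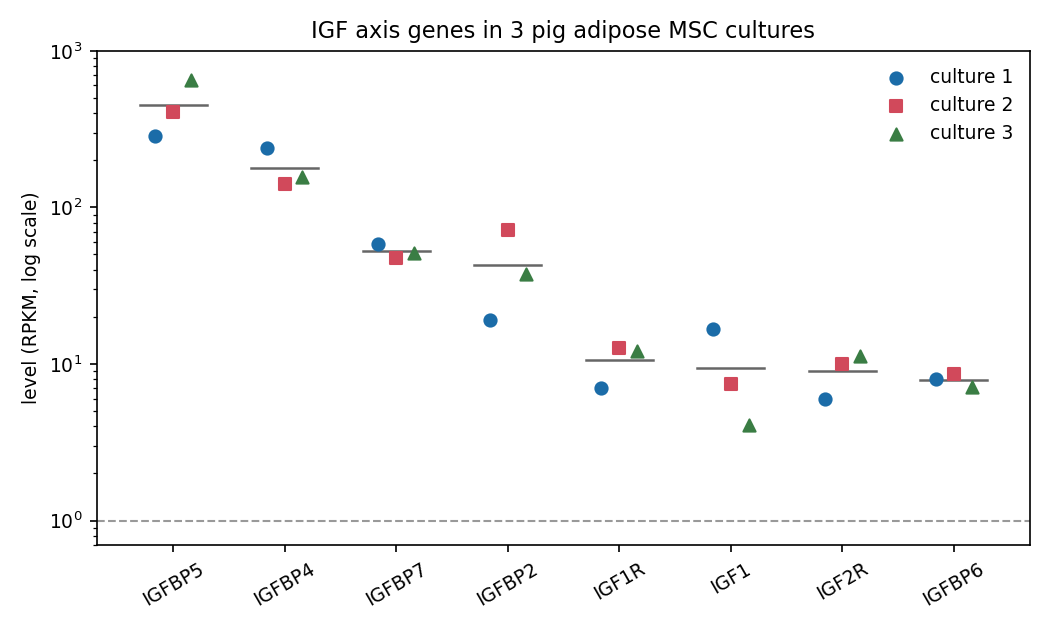
Level of each IGF axis gene in RPKM on a log scale, in order of mean level, with IGFBP6 (found by its ID) last. Points are the 3 cultures, grey bars their means, and the dashed line is 1 RPKM. The binding proteins IGFBP5, IGFBP4, IGFBP7 and IGFBP2 lie above IGF1R, IGF1 and IGF2R in every culture, and the points of IGF1 and IGFBP2 lie farthest apart.

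The ligand IGF1 (ENSSSCG00000000857, chromosome 5, 81775970 to 81848037 on susScr11, as all coordinates here) had 16.7, 7.41 and 4.10 RPKM in cultures 1, 2 and 3 (9.41 ± 6.54, SD, n = 3). Culture 1 held the most and culture 3 the least. These levels rest on 4781, 2548 and 1468 reads, so that counting alone contributes an error of at most 2.61%, far below the 4.07-fold range. That range stood at percentile 93.4 of the genes averaging at least 1 RPKM. The order of IGF1, highest in culture 1 and lowest in culture 3, was shared by 14.3% of those genes. In a test of whether the variance between cultures exceeded that of genes of like level, IGF1 had a log2 SD of 0.96 beside 0.33 for such genes (limma, unadjusted p = 0.029, adjusted p = 0.73 over 10474 genes). The spread did not pass the correction.

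IGF2, the other ligand and the main one of fetal growth, has its RefSeq gene on Sscrofa11.1 at chromosome 2, 1469183 to 1496417. The unnamed protein-coding entry ENSSSCG00000035293 (1469132 to 1496442) covers 100% of that interval and had 0.069, 0.090 and 0.089 RPKM in cultures 1, 2 and 3. All 3 values are low and close together, from 25, 39 and 40 reads, and a count of this size carries a counting error of 15.8% to 20%. The entry lay below 1 RPKM in limma's test (adjusted p = 1.6e-14), as did 60.8% of all genes tested, and stood at percentile 44.7 of the genes with a read. INS, the insulin gene that follows on the chromosome, was listed at 0 in each culture. Whether the entry holds every IGF2 transcript was not tested.

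The receptor IGF1R (ENSSSCG00000030560, chromosome 1, 137387925 to 137690666) had 7.04, 12.6 and 12.1 RPKM in cultures 1, 2 and 3 (10.6 ± 3.07, SD, n = 3). IGF2R (ENSSSCG00000004044, chromosome 1, 7368103 to 7472548) had 5.99, 9.98 and 11.2 RPKM (9.05 ± 2.72). For both receptors culture 1 was the lowest and cultures 2 and 3 lay close together. Culture 1 was also the lowest for 57.0% of all genes of at least 1 RPKM. Their ranges, 1.79-fold and 1.87-fold, stood at percentiles 63.2 and 67.0 of those genes. The ratio of IGF2R to IGF1R was the steadiest among the 21 pairs of these genes, at 0.851, 0.791 and 0.928 in cultures 1, 2 and 3 (log2 ratio -0.23 ± 0.11, SD, n = 3). IGF1R was the higher of the pair in 3 of 3 cultures, although the ranges of both genes overlap. With 3 cultures an exact two-sided sign-flip permutation test cannot give less than p = 0.25, so this order is a description.

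INSR, the insulin receptor, which forms hybrids with IGF1R, had 1.82, 3.998 and 5.51 RPKM. The ratio of IGF1R to INSR was 3.87, 3.16 and 2.19 in cultures 1, 2 and 3, so IGF1R RNA was the more abundant in each. Relative to its ligand, IGF1R stood at 0.421, 1.70 and 2.94 times the level of IGF1 in the same cultures, and the order of ligand and receptor thus differed between culture 1 and the others.

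IGFBP5 was the most abundant of the axis genes analysed here, which leave out IGFBP3. It is a matrix-associated binding protein and a target of the protease PAPPA. IGFBP5 (ENSSSCG00000025924, chromosome 15, 118857479 to 118878522) had 286, 408 and 647 RPKM in cultures 1, 2 and 3 (447 ± 184, SD, n = 3). It ranked at place 63 of all protein-coding entries by mean RPKM, and it was lowest in culture 1 and highest in culture 3, a 2.26-fold range. The spread of IGFBP5 was that of genes of like level (log2 SD 0.59 beside 0.61; limma, unadjusted p = 0.46, adjusted p = 0.995).

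IGFBP4, a binding protein known mostly to inhibit IGF action, followed. It had 240, 140 and 155 RPKM (ENSSSCG00000017472, chromosome 12, 21961645 to 21980211; 178 ± 53.5, SD, n = 3). Culture 1 was the highest here, and cultures 2 and 3 differed by 1.11-fold. In culture 1 IGFBP5 exceeded IGFBP4 by 1.19-fold only, against 2.91-fold and 4.17-fold in cultures 2 and 3.

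IGFBP7, which binds IGFs weakly and is also a protein of vessels and matrix, had the narrowest range of the 7 on the deposited scale. It had 58.3, 47.8 and 51.2 RPKM (ENSSSCG00000008913, chromosome 8, 56279894 to 56357835; 52.4 ± 5.35, SD, n = 3). Its 1.22-fold range stood at percentile 13.6 of genes of at least 1 RPKM. Scaled to protein-coding reads it ranged 1.54-fold, and IGF1R and IGF2R then ranged less. POLR2B overlaps an end of the gene over 5121 bases and had 24.2 ± 1.08 RPKM, and without a stated strand setting reads of the shared stretch cannot be told apart.

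IGFBP2, a binding protein of fetal tissue and preadipocytes that carries an integrin-binding motif in human, had 19.04, 71.5 and 37.5 RPKM in cultures 1, 2 and 3 (ENSSSCG00000035392, chromosome 15, 118822047 to 118850976; 42.7 ± 26.6, SD, n = 3). Culture 2 was the highest and culture 1 the lowest, a 3.76-fold range at percentile 92.6. Its log2 SD of 0.94 beside 0.35 for genes of like level did not pass the correction (limma, unadjusted p = 0.042, adjusted p = 0.81). IGFBP2 and IGFBP5 are neighbours, 6.502 kb apart with 0 entries between them, yet had their highest level in different cultures.

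IGFBP6, which prefers IGF2, was the lowest binding protein with a level above 1 RPKM among those analysed. Its entry (ENSSSCG00000000261, chromosome 5, 18352314 to 18357224) had 7.98, 8.63 and 7.14 RPKM (7.91 ± 0.747, SD, n = 3; limma, adjusted p = 1.2e-11 against 1 RPKM). The 3 values lay within 1.21-fold of each other. SPRYD3, at 6.20 ± 0.605 RPKM, overlaps the gene over 801 bases.

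The order of mean levels was IGFBP5, IGFBP4, IGFBP7, IGFBP2, IGF1R, IGF1 and IGF2R. Of the 21 pairs 17 had ranges that did not overlap between the genes, and 18 kept their order in 3 of 3 cultures. Among neighbours in the order, IGFBP7 and IGFBP2 overlapped, with IGFBP2 higher in culture 2 only. IGF1R and IGF1, and IGF1 and IGF2R, overlapped too, with IGF1 higher than either receptor in culture 1 only. The fourth overlap was that of IGF1R with IGF2R. IGFBP5 and IGFBP4, IGFBP4 and IGFBP7, and IGFBP2 and IGF1R were neighbours with separate ranges.

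Both the sum of the binding protein RNA and its make-up differed between the cultures. The 4 binding proteins summed to 603, 668 and 891 RPKM in cultures 1, 2 and 3 (721 ± 151, SD, n = 3), a sum that depends on the scaling of the libraries. IGFBP5 made up 47.4%, 61.1% and 72.6% of that sum (60.4% ± 12.6). IGFBP4 made up 39.8%, 21.0% and 17.4% (26.1% ± 12.0), so IGFBP5 and IGFBP4 were near equal in culture 1 and far apart in culture 3. IGFBP7 held 9.67%, 7.16% and 5.74%, and IGFBP2 3.16%, 10.7% and 4.21%. With IGFBP6 counted in, it took 1.30%, 1.28% and 0.795% of the sum. Such shares within a library do not depend on how the libraries are scaled to each other.

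**Figure D2:**
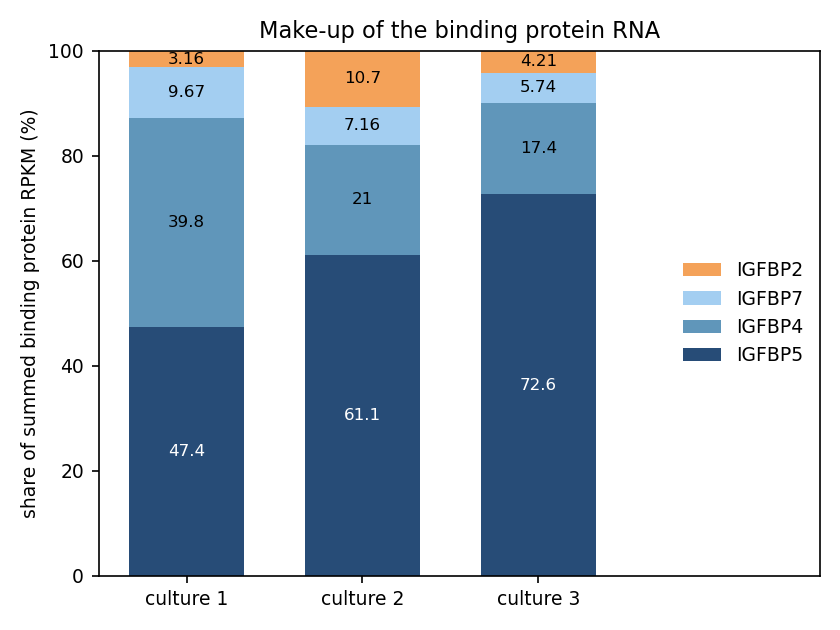
Share of each binding protein in the summed RPKM of IGFBP5, IGFBP4, IGFBP7 and IGFBP2, in percent, for each of the 3 cultures (1 library each, no error bars). The IGFBP5 segment is 47.4% in culture 1 and 72.6% in culture 3, while that of IGFBP4 is 39.8% and 17.4%.

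Binding protein RNA exceeded IGF1 RNA by 36.1-fold, 90.1-fold and 217-fold in cultures 1, 2 and 3, a log2 ratio of 6.48 ± 1.29 (SD, n = 3). It was positive in 3 of 3 cultures, and the ratio was lowest in culture 1 and highest in culture 3. IGFBP5 alone stood 17.1-fold, 55.1-fold and 158-fold above IGF1. IGFBP2 was 1.14 times as abundant as IGF1 in culture 1 and 9.65 and 9.15 times in cultures 2 and 3.

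Between cultures, 3 of the 7 genes ranged at least 2-fold, namely IGF1, IGFBP2 and IGFBP5, as did 27.5% of the 10474 genes averaging at least 1 RPKM. No member passed the spread test (0 of 7, and 0% of all genes; limma, adjusted p under 0.05). At an unadjusted p under 0.05 the test picked IGF1 and IGFBP2, 2 of 7, beside 5.93% of all genes. On the deposited scale culture 1 was part of each 2-fold difference. From culture 1 to culture 2, 2 of 7 genes lay at least 2-fold apart (IGFBP2 3.76-fold higher in culture 2, IGF1 at 0.443 times), beside 20.8% of all genes. For culture 3 against culture 1 the count was again 2 of 7 (IGFBP5 2.26-fold higher, IGF1 at 0.245 times), beside 17.0% of genes. Cultures 2 and 3 differed by at least 2-fold in 0 of 7, beside 7.4% of genes, and the widest difference there was 1.91-fold, for IGFBP2. These comparisons share culture 1 and rest on 1 library each, so they carry no test.

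**Figure D3:**
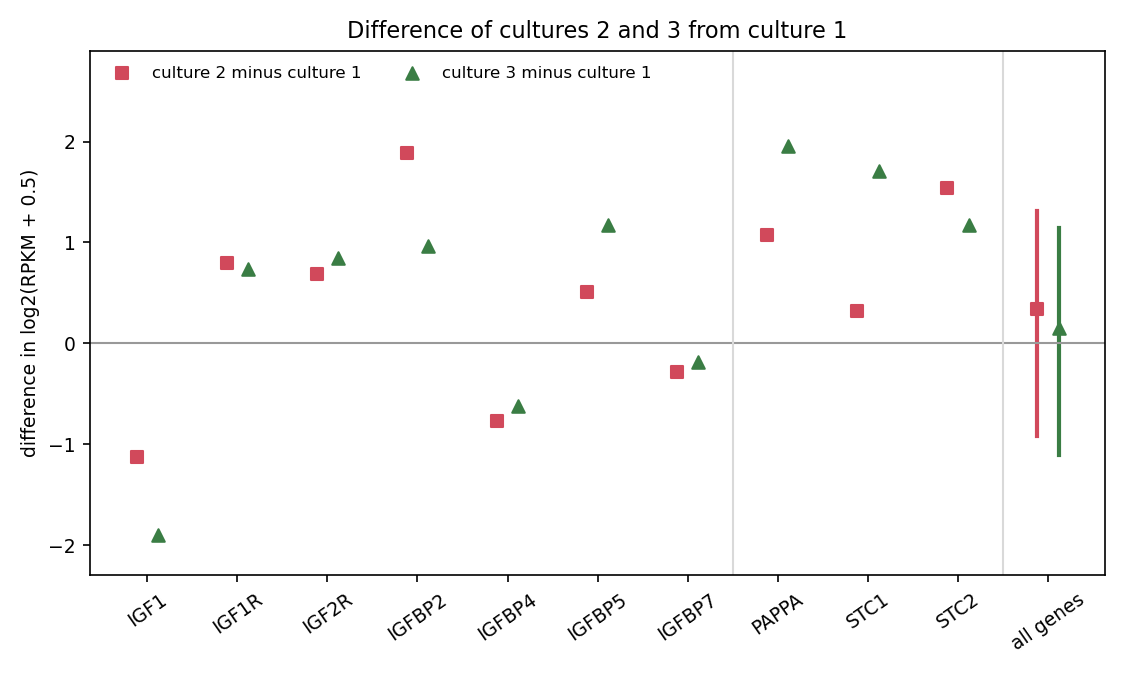
Difference in log2(RPKM + 0.5) of culture 2 (squares) and culture 3 (triangles) from culture 1, for the 7 genes and, to the right of the first line, PAPPA and its inhibitors STC1 and STC2; the last column gives the median and the 5% to 95% span of all genes of at least 1 RPKM. IGF1 lies at -1.12 and -1.90 and IGFBP4 at -0.77 and -0.63, while IGFBP2 lies at 1.88 and 0.96 and IGFBP5 at 0.51 and 1.18.

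The median of all genes of at least 1 RPKM itself lay 0.34 and 0.15 higher in cultures 2 and 3 than in culture 1 on the log2 scale. IGF1, IGFBP4 and IGFBP7 lay lower than in culture 1 against that shift, and the other 4 genes lay above the median. Scaled to protein-coding reads instead of all counted reads, IGF1 had 23.8, 8.37 and 4.62 RPKM, a 5.14-fold range, and IGFBP5 406, 461 and 729, a 1.79-fold range, while IGFBP4 ranged 2.15-fold. IGF1R and IGF2R then ranged 1.42-fold and 1.48-fold. The culture of highest level stayed the same for all 7 genes under that scaling. With median-of-ratios size factors it moved to culture 3 for IGFBP7 and IGF1R and stayed the same for the other 5. With those factors IGFBP5 lay 2.19-fold higher in culture 3 than in culture 2. The part of the small RNA share in the differences of culture 1 was otherwise not tested, and nor was that of the Y-linked genes, which divide the cultures the same way.

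The genes closest to each member in pattern, by Euclidean distance of mean-centred log2(RPKM + 0.5) over the 3 cultures, were drawn from 9386 other named genes of at least 1 RPKM. For IGF1 the closest was MARCKS, a membrane-bound kinase substrate (49.5, 22.5 and 13.6 RPKM; distance 0.06), and 1.11% of genes lay within a distance of 0.5. For IGFBP2, 2.59% of genes lay within 0.5. IGFBP5 was matched by MAT1A, IGFBP4 by UBE2A, IGFBP7 by ANXA4, IGF1R by RHOBTB2 and IGF2R by PACSIN3, and from 10.2% to 45.6% of genes lay within 0.5 of these members. Over 3 samples such closeness is a description.

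The proteases that cut binding proteins, and their inhibitors, were largely expressed. Of 17 measured genes of that list 13 were above 1 RPKM in the limma test and 4 below. For this list and each one that follows, 42.0% of all protein-coding genes were above, and 60.8% of all genes tested were below. The 60.8% includes non-coding genes, and the share of protein-coding genes below is not given here. The 2 shares are thus not alike. PAPPA, the protease that cuts IGFBP4 and IGFBP5, had 14.6, 31.2 and 58.0 RPKM in cultures 1, 2 and 3 (34.6 ± 21.9, SD, n = 3). Culture 1 was the lowest and culture 3 the highest, a 3.98-fold range whose spread did not pass the correction (limma, unadjusted p = 0.032, adjusted p = 0.76). The level of PAPPA was 0.0608, 0.222 and 0.373 times that of its substrate IGFBP4.

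STC1 and STC2, secreted inhibitors of PAPPA, were also present. STC1 had 3.63, 4.64 and 13.0 RPKM and STC2 9.58, 28.7 and 22.2, both lowest in culture 1. PAPPA exceeded STC2 by 1.52-fold, 1.09-fold and 2.61-fold. PAPPA2, which cuts IGFBP5 and IGFBP3 and is named here after its values were seen, had 1.43, 0.0898 and 0.329 RPKM and lay below 1 RPKM (limma, adjusted p = 0.043). PAPPA2 was no longer called with culture 2 left out (limma, adjusted p = 0.51), with culture 3 left out (adjusted p = 0.13), or with protein-coding reads as the library size (adjusted p = 0.34). It was also lost with a pseudocount of 1 RPKM (adjusted p = 0.17), median-of-ratios size factors (0.062) and a minimum mean of 0.1 RPKM (0.11).

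MMP2 and HTRA1 were among the 3 most abundant genes of the list. MMP2, a gelatinase, had 369, 483 and 494 RPKM, and the serine protease HTRA1 92.3, 247 and 226. Plasminogen (PLG) was the lowest at 0.026 ± 0.023 RPKM, and the overlapping SLC22A3 had more reads.

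Of 8 measured genes among other ligands, receptors and carriers only INSR was above 1 RPKM (3.78 ± 1.86, SD, n = 3), 6 lay below and INS had 0 reads. IGFBP1, the binding protein of liver and decidua, had 0.034 ± 0.014 RPKM. IGFALS, which holds IGFs in the circulating ternary complex, had a total of 1 read, in culture 2 (0.0079 RPKM). The growth hormone receptor GHR, through which growth hormone raises IGF1 in liver, had 0.331, 0.379 and 0.509 RPKM and lay below 1 RPKM (limma, adjusted p = 0.0013).

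Most genes that pass the receptor signal on were expressed. Of 11 adaptor genes 8 were above 1 RPKM and 2 below, where 42.0% of all protein-coding genes were above, with SHC1 (39.6 ± 5.09 RPKM, SD, n = 3), CRK (36.2 ± 2.37) and CRKL (20.6 ± 2.91) highest and IRS4 (0.020 ± 0.017) lowest. Of the insulin receptor substrates, named after their values were seen, IRS1 had 4.92, 7.01 and 5.47 RPKM. IRS2 had 2.66, 0.559 and 1.02 and was not decided against 1 RPKM (limma, adjusted p = 0.50); like IGF1 it was highest in culture 1.

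In the PI3K, AKT, TOR and FOXO arm 19 of 22 genes were above and 1 below. GSK3B (19.1 ± 3.61 RPKM), the translation repressor EIF4EBP1 (19.1 ± 7.08) and the PI3K regulatory subunit PIK3R1 (10.4 ± 1.06) were highest, and the leukocyte phosphatase INPP5D (0.041 ± 0.028) was lowest. FOXO4, named after its values were seen, had 1.69 ± 0.343 RPKM, and its call above 1 RPKM (limma, adjusted p = 0.046) was lost with any culture left out (0.076 to 0.18). In the RAS and ERK arm 9 of 9 were above. MAPK3, which overlaps GDPD3, was among the highest at 29.3 ± 2.61, and HRAS was lowest at 2.76 ± 0.745. Among genes of mannose 6-phosphate sorting, the pathway IGF2R serves, 8 of 10 were above and 0 below. VPS35 of the retromer had 29.6 ± 1.83 RPKM, the cation-dependent receptor M6PR 16.6 ± 0.341 and VPS26A 15.1 ± 2.25, while NAGPA (0.730 ± 0.132) was lowest and not decided (limma, adjusted p = 0.24). M6PR thus lay above IGF2R in each culture, with 16.2, 16.7 and 16.9 RPKM.

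All 4 precursor-processing convertases were above 1 RPKM. These enzymes cut proproteins, among them the precursors of IGF1R and the IGFs. PCSK5 had 21.1 ± 1.82 RPKM, PCSK6 6.16 ± 3.36, FURIN 4.91 ± 1.75 and PCSK7, the lowest, 4.46 ± 2.02 (SD, n = 3). Of 8 measured regulators of the IGF2 gene or its RNA 3 were above and 5 below. CTCF, which insulates the IGF2 locus on the maternal chromosome, had 10.9 ± 2.26 RPKM, the RNA-binding protein IGF2BP2 6.81 ± 1.70, the imprinted zinc finger gene PLAGL1 4.63 ± 1.80 and LIN28B, the lowest, 0.042 ± 0.039. Among the 5 below, the call of IGF2BP3 was lost without culture 2 (limma, adjusted p = 0.079) or culture 3 (0.12) and that of PLAG1 without culture 2 (0.065); both are named after their values were seen. ZBED6, a repressor of IGF2 in pig muscle, and the imprinted RNA H19 are not analysed here.

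Over all 8 lists, 65 of 88 tested pathway genes were above 1 RPKM, beside 42.0% of all protein-coding genes. There were 18 below, beside 60.8% of all genes tested, a share that includes non-coding genes. The 89 entries had a median of 6.42 RPKM. Of the 66 averaging at least 1 RPKM, 52 (78.8%) had their lowest level in culture 1, beside 57.0% of all such genes. The 57.0% covers genes of every type, and library 1 had the smallest protein-coding share of reads, 70.3%. The count was not repeated on the scale of protein-coding reads. At least a 2-fold range between cultures was seen in 15 (22.7%), beside 27.5%.

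**Figure D4:**
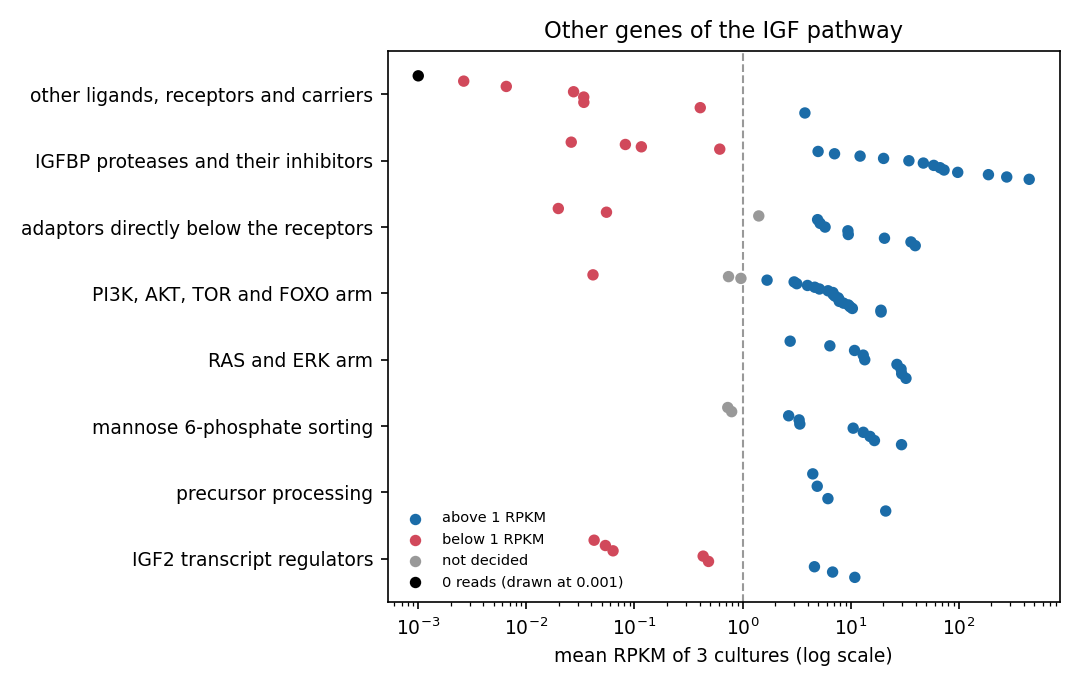
Mean RPKM over 3 cultures, on a log scale, of the 89 other pathway genes with an entry, by list; each point is a gene, coloured by limma's call against 1 RPKM (dashed line), and INS with 0 reads is drawn at 0.001. The RAS and ERK arm and the precursor-processing list lie wholly above 1 RPKM. Of 8 other ligands, receptors and carriers 6 are called below it, and INS, without a call, is also drawn below the line.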

How the data were processed

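The authors deposited RPKM values for each gene and library, per the file headers. Per the labels' protocols, 0.5 µg of miRNeasy total RNA per culture was made into a TruSeq V2 library. The submitters' processing notes name the build susScr11. The sources used here give no aligner, counter, annotation release or strand setting. Each RPKM, times the listed length plus 1 base, was a whole multiple of a single step per library (tolerance 1e-06 of a read) in 100% of values, which gave read counts and depths. A count of 0 over a 2 kb gene allows up to 3 reads, or 0.0232 to 0.029 RPKM, for counting error only. Of 14012 entries without a name, 773 were named by Ensembl ID. Positions of IGF2 came from RefSeq on Sscrofa11.1.

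Levels on the scale log2(RPKM + 0.5) were tested against 1 RPKM by limma 3.58.1 (R 4.3.3) over 29479 genes with a read (trended, robust prior, two-sided). Spread was tested over 10474 genes of at least 1 RPKM as an upper-tail F test of the variance between libraries over limma's prior variance, with 2 residual degrees of freedom. Benjamini-Hochberg adjusted p under 0.05 was the threshold. Both tests were run on simulated data, without requiring that a wider spread be found. The spread test called 0 of all 10474 genes in the main setting, so a member that did not pass is not shown to be steady. Fold ranges are on the RPKM scale. No libraries agreed within sampling noise.

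The members and lists were chosen with earlier results of these data known. Every member is named; of each pathway list the 3 genes of highest mean RPKM and the lowest are named, with INSR, GHR, PAPPA, STC1, STC2, IGFALS, IGFBP1, ZBED6 and H19. Some genes picked by these rules are left out of the text.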

Additional observations from a re-analysis of the deposited data

How the results depend on the processing

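The level calls held under all alternatives against 1 RPKM: 7 members above and 0 below with a pseudocount of 0.1 or 1 RPKM, either other scaling, voom weights, a minimum mean of 0.1 RPKM or any culture left out. The size of the p-values did not hold. For IGF1 the adjusted p-value in limma ran from 4.6e-40 with voom weights to 0.0035 when scaled to protein-coding reads. Against 5 RPKM, 6 members were above; IGF1 was not decided (limma, adjusted p = 0.054). For pathway genes the counts against 5 RPKM were 39 above and 30 below, and with a minimum mean of 0.1 RPKM 4 were below, since fewer low genes were tested. With a culture left out these counts were 64 above each time and 13 to 18 below. No member passed the spread test under any alternative in which it was run (0 in each). Of all genes it called 14 of 10478 with median-of-ratios size factors and 131 of 10471 without culture 3. In the other settings it called 0 genes of any kind, so no member could stand out there. With median-of-ratios size factors 5 members ranged at least 2-fold. With a culture left out 0 to 2 did, 0 without culture 1. Shares of all genes with such a range, or with the level calls above, are not given for these alternatives. The log2 ratio of binding protein to IGF1 RNA ran from 5.83 to 7.13 and that of IGF2R to IGF1R from -0.29 to -0.17 with a culture left out. No paired analysis was possible because the series has a single group. With 3 libraries of 1 group, the number of cultures and not the read depth limits the precision for the members.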
